A study of Mus musculus with 12 samples.

Results

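The subject here is a set of 10 genes listed together as FOXO factors and antiproliferative genes of quiescence, the resting state of cells. They are the forkhead factors Foxo1, Foxo3 and Foxp1, the antiproliferative genes Btg1, Btg2 and Tob1, the sestrins Sesn1 and Sesn3, the cyclin gene Ccng2 and Txnip. Whether they hold these B cells at rest was not tested. They were taken by symbol from an array table of 18193 genes, and where a symbol had several probe sets, the one brightest on average across the 12 arrays stood for it. The cells were follicular B cells of mouse spleen, the main recirculating B cells, from 6-week-old mice of the C57Bl/6 strain that were either Ikaros-deficient (IkL/L) or wild type (WT). They were sorted as B220+CD23hiCD21lo cells at a purity above 98%. In each genotype there were 3 groups of 2 arrays, cultured for 3 h without stimulus, for 3 h with anti-IgM or for 12 h with anti-IgM, which gave 6 groups. Anti-IgM was a goat F(ab')2 antibody at 10 µg/ml, which cross-links the B cell receptor. How the IkL/L alleles change Ikzf1, the gene of the transcription factor Ikaros, and how many animals went into an array are not given in the sources used here.

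FOXO proteins are transcription factors that are active in the nucleus of resting cells. When an antigen receptor activates phosphoinositide 3-kinase (PI3K), the kinase AKT phosphorylates them and they leave the nucleus. Their targets include genes that hold back the cell cycle and genes for homing and survival of resting lymphocytes. Foxp1, a forkhead factor of another family, keeps mouse naive T cells quiescent and is needed for mature B cells. BTG and TOB proteins bring the CCR4-NOT deadenylase to mRNAs, which shortens their poly(A) tails, and Btg1 and Btg2 preserve quiescence in mouse T cells. Sestrins are stress-responsive proteins that restrain cell growth, Ccng2 encodes cyclin G2, an atypical cyclin that slows the cell cycle, and Txnip encodes an alpha-arrestin that binds thioredoxin and lowers glucose uptake.

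The sequence before the transcription start is shown for Sesn1, Ccng2 and Txnip, which at 12 h had the largest falls of the 10 genes in both genotypes, and for Btg1, which did not fall at 3 h. All 10 symbols matched the RefSeq promoter table (build GRCm38.p6), and the 250 bases before each listed start were searched on both strands. The motifs were a forkhead site (TGTTTAC), an E-box (CACGTG), the Ikaros core (TGGGAA) and the p53 half-site, and no matches overlapped. Capitals mark the matches, and all these windows lie on the plus strand: chr10:41810324-41810573 and chr10:41887189-41887438 (Sesn1), chr5:93267323-93267572 (Ccng2), chr3:96557707-96557956 (Txnip) and chr10:96616751-96617000 (Btg1).
Sesn1 first start: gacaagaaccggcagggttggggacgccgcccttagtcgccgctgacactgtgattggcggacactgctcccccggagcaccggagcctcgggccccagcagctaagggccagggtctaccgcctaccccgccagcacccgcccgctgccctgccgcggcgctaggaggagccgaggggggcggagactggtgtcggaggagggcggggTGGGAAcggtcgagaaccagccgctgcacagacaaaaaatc
Sesn1 second start: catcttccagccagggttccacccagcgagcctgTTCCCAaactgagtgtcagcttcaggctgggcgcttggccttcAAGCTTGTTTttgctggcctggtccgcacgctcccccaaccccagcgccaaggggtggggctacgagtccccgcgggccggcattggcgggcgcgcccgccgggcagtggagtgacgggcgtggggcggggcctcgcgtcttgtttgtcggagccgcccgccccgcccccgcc
Ccng2: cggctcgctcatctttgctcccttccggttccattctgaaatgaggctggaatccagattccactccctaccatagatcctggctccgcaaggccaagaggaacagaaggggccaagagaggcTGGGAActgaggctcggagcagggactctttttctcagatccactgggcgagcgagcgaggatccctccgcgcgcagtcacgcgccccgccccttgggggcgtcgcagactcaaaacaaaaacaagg
Txnip: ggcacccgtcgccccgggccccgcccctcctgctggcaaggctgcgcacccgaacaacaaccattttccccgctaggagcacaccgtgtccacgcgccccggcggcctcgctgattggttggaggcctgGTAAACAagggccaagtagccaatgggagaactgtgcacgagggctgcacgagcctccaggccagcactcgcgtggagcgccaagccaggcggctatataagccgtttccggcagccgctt
Btg1: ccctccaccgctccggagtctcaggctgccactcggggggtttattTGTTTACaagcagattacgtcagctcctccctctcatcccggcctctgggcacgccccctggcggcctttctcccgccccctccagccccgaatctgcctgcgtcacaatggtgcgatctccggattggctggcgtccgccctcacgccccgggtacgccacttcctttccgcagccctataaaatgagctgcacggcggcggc
Txnip held a forkhead match (GTAAACA on the strand shown) at -121 to -115 from its start, and Btg1 held one at -204 to -198. That motif was in 3.16% of the 32807 promoter windows of the table. Ikaros core matches lay at -41 to -36 before the first Sesn1 start, at -216 to -211 before the second and at -127 to -122 before Ccng2. The window before Btg2, not printed, held another at -176 to -171, and 21.6% of all windows had this motif. The second Sesn1 window also held a p53 half-site at -173 to -164, a motif of 7.13% of windows. None of these motifs was in the windows of Foxo1, Foxo3, Foxp1 (3 starts), Tob1 or Sesn3, and the E-box, present in 6.02% of windows, was in none of the 10 genes' windows. A match is a string of letters and does not show that a factor binds there. Other forms of these sites, such as imperfect E-boxes, were not searched for, so a window without a match may still hold one.

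All levels below are log2 signals, on which a step of 1 is a doubling, and levels of different genes cannot be set against each other because each comes from its own probe set. Array medians lay between 3.12 and 3.21 and the Pearson r between a group's replicates, across genes, was 0.99 to 0.994. Ikzf1 read 9.94 to 10 in unstimulated IkL/L cells and 9.83 to 9.85 in unstimulated WT cells; where its probe set lies relative to the altered part of the gene is not known, so this checks nothing about the genotype. Of the B cell markers, Cd79a read from 7.4 to 10.66 and Ighm from 11.98 to 12.95, while all 6 measured T cell genes and all 3 NK cell genes stayed under 4 on every array. The myeloid gene S100a8 read from 5.59 to 7.26 on replicate 2 arrays and from 3.42 to 5.1 on replicate 1 arrays, and its part in the results was not tested. Nothing says that the 2 replicates of a group came from separate animals beyond the statement of 2 independent experiments, so the p-values rest on the spread of these arrays alone, which may be technical.

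Anti-IgM lowered most of the 10 genes within 3 h in both genotypes. In IkL/L cells 8 fell and 0 rose, and in WT cells 7 fell and 0 rose (limma, Benjamini-Hochberg adjusted p under 0.05, n = 2 arrays a group). Over all genes, 20.4% passed in IkL/L cells (10.6% of all genes lower) and 19.4% in WT cells (10.2% lower). The median log2 difference of the 10 was -1.27 in IkL/L cells, where that of all genes was -0.028, and -1.43 in WT cells, where that of all genes was 0.025. At 12 h, 8 were lower and 0 higher than without stimulus in IkL/L cells (17.6% of all genes passed, 7.87% lower), and 9 were lower and 0 higher in WT cells (18.8% passed, 8.66% lower). The median of the 10 was then -1.32 in IkL/L cells (all genes 0.021) and -1.36 in WT cells (all genes 0.047). Tob1, counted at 3 h in IkL/L cells and at 12 h in WT cells, had signals that cannot be told from background. The 10 genes were chosen with earlier results of these data known, so these counts are a description. The 3 h and 12 h comparisons of a genotype share their unstimulated arrays, and the 12 h cultures also differ from them in time in culture, which cannot be told apart from stimulation. In such bulk RNA, fewer cells with a transcript and less of it per cell cannot be told apart either.

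**Figure D1:**
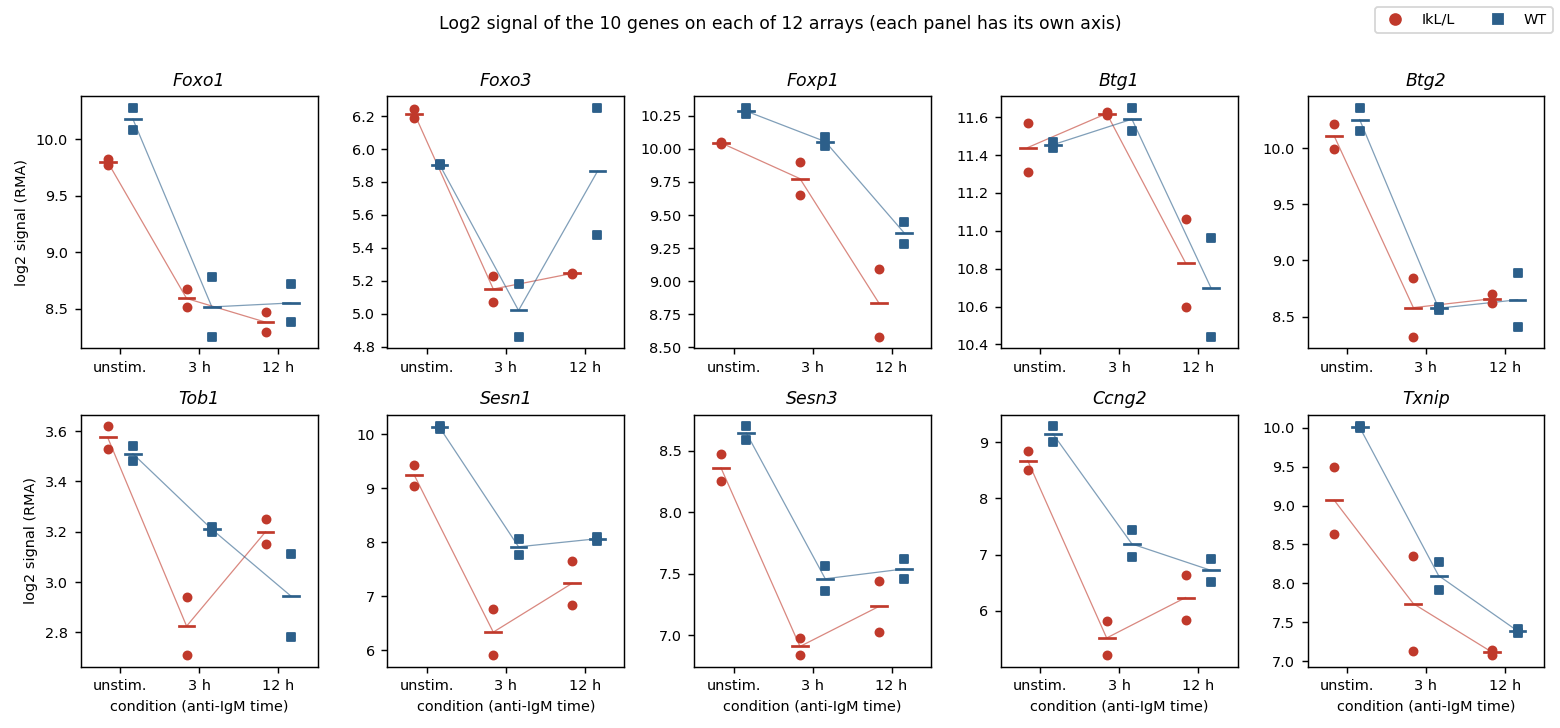
Log2 signal of each of the 10 genes on every array, by condition, with IkL/L arrays (circles) left of WT arrays (squares); short bars are group means and lines join them. Unstimulated arrays lie above stimulated ones for Foxo1, Btg2, Tob1 (near background), Sesn1, Sesn3, Ccng2 and Txnip. Btg1 is lower at 12 h only, and Foxp1 is lowest at 12 h.

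Foxo1, the main FOXO gene of B cells, fell at 3 h and stayed low. In IkL/L cells Foxo1 had 9.77 and 9.83 without stimulus, 8.51 and 8.67 at 3 h and 8.29 and 8.47 at 12 h. WT cells had 10.08 and 10.28 without stimulus, 8.25 and 8.78 at 3 h and 8.38 and 8.72 at 12 h. Every stimulated array lay below every unstimulated one, and the genotypes overlapped once stimulated. The 3 h fall was 2.32-fold in IkL/L cells (log2 -1.21, SE 0.18, adjusted p = 0.000993) and 3.18-fold in WT cells (log2 -1.67, SE 0.18, adjusted p = 0.000145). At 12 h the log2 difference was -1.42 in IkL/L cells (adjusted p = 0.000565) and -1.63 in WT cells (adjusted p = 0.000211). The 2 other bright Foxo1 probe sets, 1416981_at and 1416982_at, also fell in both genotypes at both times, by between 0.96 and 1.79 on the log2 scale, while 1456529_at stayed between 2.77 and 3.24 on all arrays.

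Foxo3, a second FOXO gene, fell at 3 h in both genotypes and its 12 h values lay apart between them. Its level in IkL/L cells was 6.24 and 6.19 without stimulus, 5.23 and 5.07 at 3 h and 5.24 and 5.25 at 12 h. WT cells had 5.91 and 5.9 without stimulus, 5.18 and 4.86 at 3 h and 5.48 and 6.25 at 12 h. The genotypes overlapped at 3 h, the 12 h IkL/L arrays lay below the 12 h WT arrays, and the WT arrays at 12 h lay on either side of the unstimulated WT arrays. At 3 h the log2 difference was -1.06 (SE 0.21, adjusted p = 0.00498) in IkL/L cells and -0.89 (SE 0.21, adjusted p = 0.0138) in WT cells. At 12 h against no stimulus it was -0.97 (adjusted p = 0.01) in IkL/L cells and -0.04 (adjusted p = 0.949) in WT cells. From 3 h to 12 h WT cells gained 0.85 on the log2 scale (adjusted p = 0.0302), the only rise among the 10 genes that passed without a replicate block, and the adjusted p was 0.147 without WT 12 h replicate 2 and 0.178 without WT 3 h replicate 2. The WT fall at 3 h was also lost on leaving out an array, with an adjusted p of 0.105 without WT 3 h replicate 2 and of 0.0704 and 0.0701 without unstimulated replicates 1 and 2. The IkL/L fall at 12 h had an adjusted p of 0.0525 without IkL/L unstimulated replicate 1 and 0.0553 without IkL/L 12 h replicate 2. The difference between the genotypes' 12 h responses was -0.93 (IkL/L minus WT, SE 0.3), with an unadjusted p of 0.0115 and an adjusted p of 0.652 in limma. Probe set 1434832_at of Foxo3 did not show the WT recovery: it read 4.75 and 4.46 without stimulus, 3.92 and 3.61 at 3 h and 3.96 and 3.9 at 12 h in WT cells. In IkL/L cells this probe set did not pass at 3 h (log2 -0.61, adjusted p = 0.118) or at 12 h (log2 -0.45, adjusted p = 0.293).

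Foxp1 fell late. The IkL/L arrays read 10.04 and 10.05 without stimulus, 9.9 and 9.65 at 3 h and 9.09 and 8.58 at 12 h. WT cells had 10.31 and 10.26 without stimulus, 10.02 and 10.09 at 3 h and 9.28 and 9.45 at 12 h. Within each condition both IkL/L arrays lay below both WT arrays, and the 12 h arrays of a genotype lay below its other arrays. The 3 h difference did not pass in IkL/L cells (log2 -0.27, adjusted p = 0.34) or in WT cells (log2 -0.23, adjusted p = 0.469). At 12 h the fall was 2.32-fold in IkL/L cells (log2 -1.21, SE 0.16, adjusted p = 0.000745) and 1.89-fold in WT cells (log2 -0.91, SE 0.16, adjusted p = 0.00306). Between 3 h and 12 h the log2 difference was -0.94 (adjusted p = 0.00375) in IkL/L cells and -0.69 (adjusted p = 0.0246) in WT cells, and the WT call was lost without any 1 of the 4 WT arrays at those times (adjusted p from 0.0629 without WT 12 h replicate 2 to 0.12 without WT 12 h replicate 1).

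Foxp1 has 8 probe sets, and they did not move alike. The probe set used, 1435221_at, is the highest by mean. Probe sets 1421142_s_at and 1421141_a_at were higher at 3 h than without stimulus. In IkL/L cells 1421141_a_at read 4.69 and 5.25 without stimulus, 5.76 and 5.88 at 3 h and 5.47 and 5.2 at 12 h, and in WT cells it read 5.19 and 5.24, then 5.85 and 6.09, then 5.77 and 5.98. In both genotypes its 3 h arrays were above its unstimulated arrays, with log2 differences of 0.85 in IkL/L cells (adjusted p = 0.00984 over all probe sets with 1 gene symbol) and 0.75 in WT cells (adjusted p = 0.0189). For 1421142_s_at the 3 h difference was 0.54 (adjusted p = 0.0461) in IkL/L cells and 0.56 (adjusted p = 0.0413) in WT cells. At 12 h 1421141_a_at was still higher in WT cells (log2 0.66, adjusted p = 0.0382) but did not pass in IkL/L cells (log2 0.37, adjusted p = 0.282). In WT cells 1455242_at and 1443258_at passed as lower at 12 h. There 1435222_at, 1438802_at and 1421140_a_at, whose mean rounds to the same 9.73 as the one used, did not pass. Which Foxp1 transcripts each probe set detects was not analysed here. With the mean of all 8 probe sets, the 12 h WT fall did not pass (adjusted p = 0.12).

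**Figure D2:**
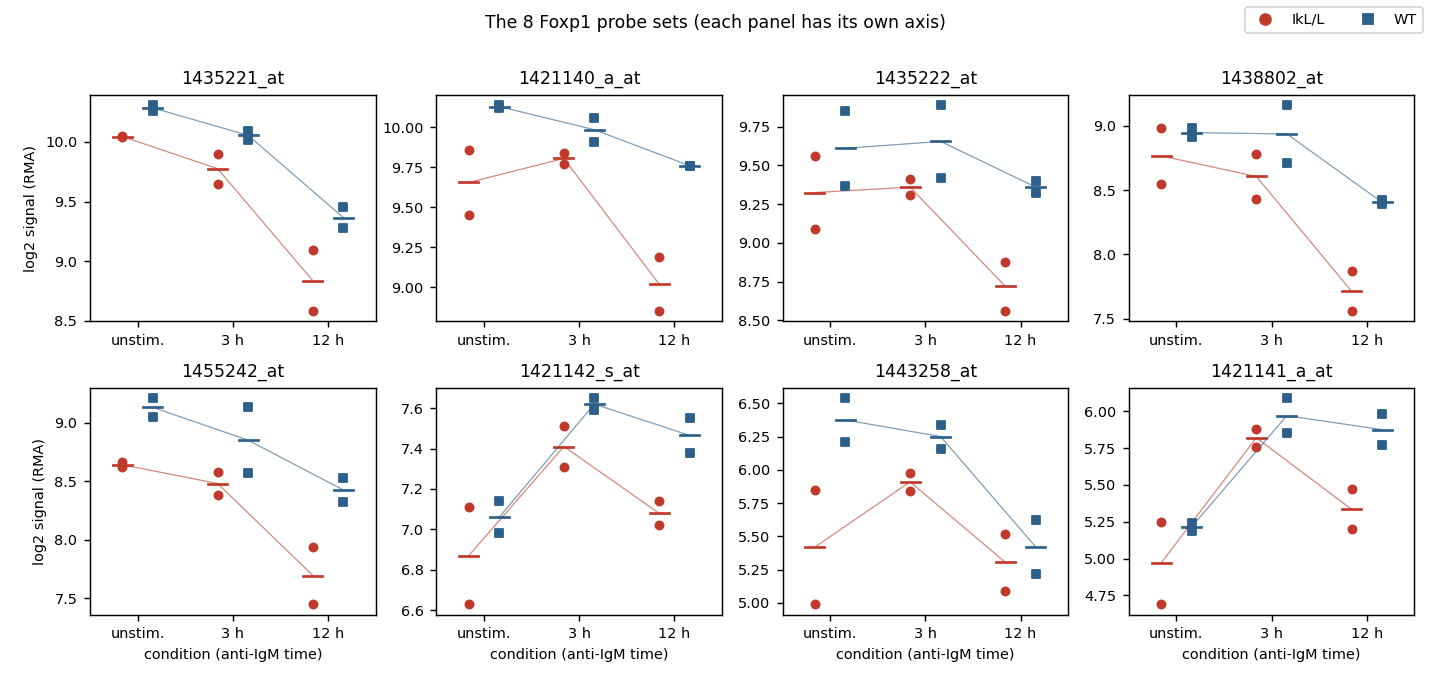
Log2 signal of the 8 Foxp1 probe sets by condition, IkL/L arrays (circles) left of WT arrays (squares), with group means as short bars joined by lines; the panels run from the highest to the lowest mean. The first panel is the probe set used for the gene; 1421142_s_at and 1421141_a_at are higher at 3 h than without stimulus in both genotypes.

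Of the antiproliferative genes, Btg2 fell at 3 h. Signals in IkL/L cells were 9.99 and 10.22 without stimulus, 8.32 and 8.84 at 3 h and 8.7 and 8.62 at 12 h. WT cells had 10.15 and 10.36 without stimulus, 8.56 and 8.59 at 3 h and 8.89 and 8.41 at 12 h. The unstimulated arrays stood apart from all stimulated ones, the 3 h and 12 h arrays overlapped, and so did the genotypes in every condition. The 3 h fall was 2.89-fold in IkL/L cells (log2 -1.53, SE 0.2, adjusted p = 0.000374) and 3.21-fold in WT cells (log2 -1.68, SE 0.2, adjusted p = 0.000212). Btg2 at 12 h had a log2 difference of -1.45 (adjusted p = 0.000779) in IkL/L cells and -1.6 (adjusted p = 0.000353) in WT cells. The other Btg2 probe set, 1416250_at (mean 8.89), did not pass at 3 h in IkL/L cells (log2 -1.44, adjusted p = 0.0712). In WT cells it did (log2 -1.65, adjusted p = 0.0428). At 12 h it passed as lower in IkL/L cells (log2 -2.16, adjusted p = 0.0133) and in WT cells (log2 -1.63, adjusted p = 0.0469).

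Btg1, the closest relative of Btg2, took another course by its brightest probe set. Its other probe sets, 1437455_a_at (mean 10.95) and 1442018_at (mean 8.49), passed in no comparison between conditions. Both were lower on average at 12 h than without stimulus in each genotype. In IkL/L cells Btg1 had 11.57 and 11.31 without stimulus, 11.61 and 11.63 at 3 h and 11.06 and 10.6 at 12 h. WT cells had 11.47 and 11.44 without stimulus, 11.53 and 11.65 at 3 h and 10.96 and 10.44 at 12 h. The 4 arrays at 12 h lay below the other 8, and the genotypes overlapped in every condition. The 3 h log2 difference was 0.19 (adjusted p = 0.647) in IkL/L cells and 0.14 (adjusted p = 0.769) in WT cells. Between 3 h and 12 h Btg1 fell by 0.79 on the log2 scale in IkL/L cells (adjusted p = 0.0205) and by 0.89 in WT cells (adjusted p = 0.0162). Against no stimulus, the 12 h difference was -0.61 (adjusted p = 0.0606, or 0.0263 with a replicate block within genotype) in IkL/L cells and -0.75 (adjusted p = 0.0219) in WT cells. The 2 replicates at 12 h were far apart: without replicate 2 of the 12 h arrays, the adjusted p of 12 h against 3 h was 0.162 in IkL/L cells and 0.115 in WT cells. These calls were also lost without either 3 h array, with adjusted p of 0.086 and 0.101 without IkL/L replicates 1 and 2 and 0.0639 and 0.0908 without WT replicates 1 and 2. The WT call against no stimulus had an adjusted p of 0.165 without WT 12 h replicate 2, and 0.103 and 0.0941 without unstimulated WT replicates 1 and 2.

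Tob1 was close to the array medians throughout. IkL/L cells had 3.62 and 3.53 without stimulus, 2.71 and 2.94 at 3 h and 3.25 and 3.15 at 12 h, and WT cells had 3.48 and 3.54, then 3.2 and 3.22, then 2.78 and 3.11. The unstimulated arrays were the highest in both genotypes, and stimulated IkL/L cells were below WT cells at 3 h and above them at 12 h. The log2 difference at 3 h was -0.75 (adjusted p = 0.00256) in IkL/L cells and -0.3 (adjusted p = 0.179) in WT cells. At 12 h it was -0.38 (adjusted p = 0.087) in IkL/L cells and -0.57 (adjusted p = 0.0134) in WT cells, and the WT call was lost without unstimulated replicate 1 (adjusted p = 0.0576) or 2 (0.0866) or 12 h replicate 1 (0.101). The other Tob1 probe set, 1440844_at, had a mean of 2.98 and no call, and signals this close to the array medians cannot be told from background.

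Sesn1, a sestrin induced by p53 and FOXO, had among the largest falls of the 10 genes. Its level in IkL/L cells was 9.43 and 9.05 without stimulus, 6.76 and 5.91 at 3 h and 7.65 and 6.83 at 12 h. WT cells had 10.1 and 10.15 without stimulus, 8.06 and 7.77 at 3 h and 8.1 and 8.03 at 12 h. Both IkL/L arrays lay below both WT arrays in every condition, and the 3 h IkL/L arrays were the lowest of all. The 3 h fall was 7.5-fold in IkL/L cells (log2 -2.91, SE 0.3, adjusted p = 0.000107) and 4.63-fold in WT cells (log2 -2.21, SE 0.3, adjusted p = 0.000519). At 12 h the log2 difference was -2 (adjusted p = 0.00131) in IkL/L cells and -2.06 (adjusted p = 0.000921) in WT cells. From 3 h to 12 h it was 0.91 in IkL/L cells (adjusted p = 0.074, or 0.00148 with the replicate block) and 0.15 in WT cells (adjusted p = 0.874). The 3 other Sesn1 probe sets also fell at 3 h in WT cells (log2 -2.32, -2.63 and -1.59), and 2 of them passed in IkL/L cells (log2 -2.93 and -2.02).

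Sesn3, the sestrin gene known as a FOXO target, followed a similar course with a smaller range. The IkL/L arrays read 8.25 and 8.47 without stimulus, 6.84 and 6.98 at 3 h and 7.44 and 7.03 at 12 h. WT cells had 8.7 and 8.59 without stimulus, 7.36 and 7.56 at 3 h and 7.46 and 7.62 at 12 h. Unstimulated arrays lay above all stimulated ones, and both IkL/L arrays lay below both WT arrays in each condition, at 12 h by a narrow gap. The 3 h fall was 2.74-fold in IkL/L cells (log2 -1.45, SE 0.16, adjusted p = 0.00014) and 2.27-fold in WT cells (log2 -1.18, SE 0.16, adjusted p = 0.000443). Its 12 h log2 difference was -1.13 (adjusted p = 0.000849) in IkL/L cells and -1.11 (adjusted p = 0.000796) in WT cells. The other Sesn3 probe set, 1453313_at (mean 6.23), did not pass against no stimulus at either time in either genotype. Its log2 difference at 3 h was -0.84 (adjusted p = 0.454) in IkL/L cells and -1.75 (adjusted p = 0.0767) in WT cells. At 12 h it was -0.24 (adjusted p = 0.892) in IkL/L cells and -1.52 (adjusted p = 0.13) in WT cells. With the mean of both Sesn3 probe sets, the 12 h IkL/L fall did not pass (adjusted p = 0.202).

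Ccng2 had the largest 3 h fall of the 10 genes in IkL/L cells. IkL/L cells had 8.84 and 8.51 without stimulus, 5.21 and 5.82 at 3 h and 6.63 and 5.84 at 12 h. WT cells had 9.01 and 9.29 without stimulus, 6.95 and 7.43 at 3 h and 6.52 and 6.92 at 12 h. IkL/L arrays lay below WT arrays without stimulus and at 3 h, and the genotypes overlapped at 12 h. The 3 h fall was 8.99-fold in IkL/L cells (log2 -3.17, SE 0.3, adjusted p = 5.8e-05) and 3.87-fold in WT cells (log2 -1.95, SE 0.3, adjusted p = 0.00101). At 12 h the log2 difference was -2.44 (adjusted p = 0.000397) in IkL/L cells and -2.43 (adjusted p = 0.000329) in WT cells. The difference between the 3 h responses was -1.21 (IkL/L minus WT, SE 0.42), with an unadjusted p of 0.0161 and an adjusted p of 0.764 in limma. The second Ccng2 probe set, 1448364_at, was dimmer (mean 3.36) and passed in all 4 of these comparisons with smaller log2 differences, from -0.66 to -1.24.

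Txnip fell at both times. IkL/L cells had 9.5 and 8.63 without stimulus, 8.35 and 7.13 at 3 h and 7.15 and 7.08 at 12 h. WT cells had 9.99 and 10.02 without stimulus, 8.28 and 7.92 at 3 h and 7.36 and 7.42 at 12 h. IkL/L replicate 2 was well below replicate 1 without stimulus and at 3 h, and the genotypes overlapped at 3 h only. The 3 h fall was 2.51-fold in IkL/L cells (log2 -1.33, SE 0.36, adjusted p = 0.0246) and 3.75-fold in WT cells (log2 -1.91, SE 0.36, adjusted p = 0.00371). The IkL/L call was lost without unstimulated replicate 1 (adjusted p = 0.192) or 3 h replicate 2 (0.187). At 12 h the log2 difference was -1.95 (adjusted p = 0.00406) in IkL/L cells and -2.62 (adjusted p = 0.00066) in WT cells. The second Txnip probe set, 1415997_at, was dimmer (mean 4.14) and passed only at 12 h in WT cells (log2 -1.16, adjusted p = 0.0192). Its other differences from no stimulus, from -0.67 to -0.78, did not pass. In the same IkL/L arrays S100a8 read 5.1 and 6.8 without stimulus and 5.08 and 6.7 at 3 h. The plasma cell gene Jchain read 5.64 and 8.68, then 5.72 and 8.14. The other plasma cell markers did not all move with Jchain. Prdm1 read 3.36 and 3.4, then 2.92 and 2.92, and Sdc1 read 3.43 and 3.13, then 2.41 and 2.73. Xbp1 read 8.94 and 8.9, then 8.84 and 8.94, and Irf4 read 9.95 and 10.72, then 11.97 and 12.12. The part of S100a8 and of these markers in the Txnip values was not tested.

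**Figure D3:**
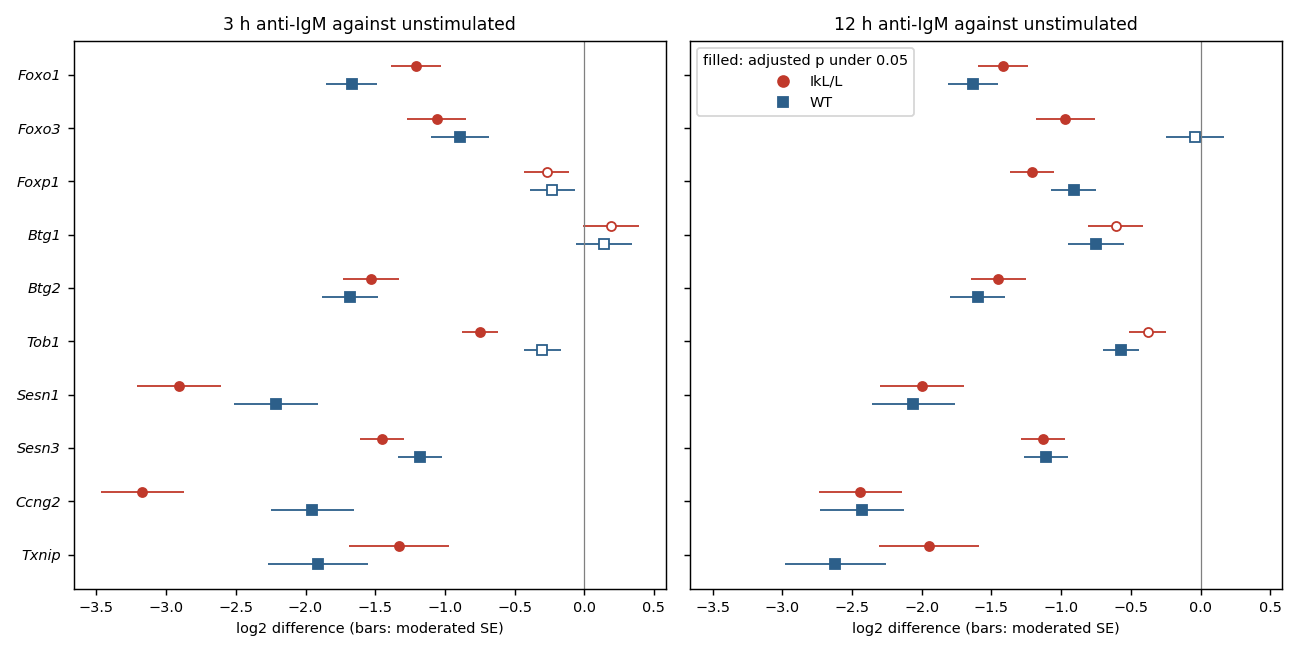
Log2 difference from unstimulated cells at 3 h (left) and 12 h (right) for each gene, IkL/L (circles) above WT (squares); bars are moderated standard errors and filled symbols passed an adjusted p of 0.05. Apart from Btg1 at 3 h, all points lie below 0, and Ccng2 in IkL/L cells at 3 h (log2 -3.17) lies farthest.

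Between 3 h and 12 h few of the 10 genes moved further. In IkL/L cells 2 fell (Foxp1 and Btg1) and 0 rose, where 15.5% of all genes passed (6.42% of all genes lower). With the replicate block within genotype Sesn1 also passed there, as higher at 12 h (adjusted p = 0.00148), beside 21.8% of all genes. In WT cells 2 fell (Foxp1 and Btg1) and 1 rose (Foxo3), where 10.8% of all genes passed (4.33% lower and 6.5% higher). For Foxo1, Btg2, Sesn3 and Sesn1 the WT log2 differences were between 0.04 and 0.15, none past the threshold.

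The next question was whether Ikaros deficiency changed these genes. At 3 h of anti-IgM, 2 of the 10 were lower in IkL/L than in WT cells and 0 were higher, where 1.7% of all genes passed (0.868% of all genes lower). They were Ccng2, 3.21-fold lower (log2 -1.68, SE 0.3, adjusted p = 0.0254), and Sesn1, 2.99-fold lower (log2 -1.58, SE 0.3, adjusted p = 0.033). Sesn3 had a log2 difference of -0.55 (SE 0.16, adjusted p = 0.14), and Foxo1, Btg1 and Btg2 were within 0.08 of WT. With the mean of all its probe sets, Sesn1 did not pass at 3 h (log2 -1.04, adjusted p = 0.0659). With only the groups compared, neither Sesn1 (adjusted p = 0.0822) nor Ccng2 (adjusted p = 0.0594) passed. Both calls also rest on few arrays. Without IkL/L 3 h replicate 2 the adjusted p was 0.264 for Sesn1 and 0.0807 for Ccng2, without WT 3 h replicate 2 it was 0.14 and 0.19, and without WT 3 h replicate 1 it was 0.148 and 0.0554. Ccng2 was also lost without IkL/L 3 h replicate 1 (adjusted p = 0.122), and Sesn1 without either unstimulated WT array (0.0589).

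Without stimulus, 0 of the 10 differed between genotypes in limma, 2 had an unadjusted p under 0.05, and 1.13% of all genes passed. The 2 were Sesn1 (log2 -0.88, SE 0.3, adjusted p = 0.271) and Txnip (log2 -0.94, SE 0.36, adjusted p = 0.35). With the replicate block within genotype Sesn1 passed (adjusted p = 0.0107), beside 3.94% of all genes. The block takes the spread between replicates out of the error. A genotype difference must be judged against that spread, so this adjusted p is likely too small. At 12 h, 0 of the 10 differed in limma, 3 had an unadjusted p under 0.05 (Foxo3, Foxp1 and Sesn1), and 0.616% of all genes passed. Foxp1 had a log2 difference of -0.53 (SE 0.16, adjusted p = 0.275), Foxo3 of -0.62 (SE 0.21, adjusted p = 0.342; 0.0333 without WT 12 h replicate 1) and Sesn1 of -0.82 (SE 0.3, adjusted p = 0.384; 0.0206 with the replicate block). Only Sesn1 passed in the blocked fit at 12 h, beside 2.57% of all genes, and the limit of that fit for genotype differences applies here too.

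Averaged over the 3 conditions, 3 genes were lower in IkL/L cells and 0 higher, where 6.08% of all genes passed (2.67% of all genes lower). This average takes the 3 arrays of a replicate as independent. Same-numbered arrays of a genotype deviated together, so the adjusted p of the average are likely too small. Sesn1 was 2.14-fold lower (log2 -1.09, SE 0.17, adjusted p = 0.00601), Ccng2 1.84-fold lower (log2 -0.88, SE 0.17, adjusted p = 0.0152) and Sesn3 1.3-fold lower (log2 -0.38, SE 0.09, adjusted p = 0.0369). With the replicate block 5 were lower, the additions being Foxp1 (log2 -0.35, adjusted p = 0.0184) and Txnip (log2 -0.52, adjusted p = 0.0277), beside 13% of all genes. For a genotype difference this block leaves the spread between replicates out of the error. Its adjusted p are therefore likely too small, and the additions are not taken as shown. The Sesn3 call was lost in 12 of 16 fits with arrays left out, up to an adjusted p of 0.3 without WT replicate 2 in all conditions, and the Ccng2 call in 3 of 16 (up to 0.237 in that same setting). Sesn1 lost its average call without all 3 arrays of WT replicate 1 (0.066) or of WT replicate 2 (0.0929). Foxo1, Btg1 and Btg2 had average differences of -0.16, 0.05 and -0.04.

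The B cell marker list moved with genotype and stimulation as well. The log2 of the summed signals of its 8 measured genes was 13.98 to 14.08 in IkL/L and 14.28 to 14.37 in WT cells without stimulus, 12.78 to 12.98 in IkL/L and 13.07 to 13.39 in WT cells at 3 h, and 13.19 to 13.41 in IkL/L and 13.29 to 13.37 in WT cells at 12 h. At 3 h Cd79b, a B cell receptor subunit, read 9.21 and 8.54 in IkL/L cells, against 10.43 and 10.91 in WT cells. The 5 marginal zone B cell markers did not move alike: the log2 of their summed signals at 3 h was 10.58 to 10.8 in IkL/L cells and 11.54 to 11.74 in WT cells. Among them Cd9 read 7.69 to 9.15 on IkL/L arrays and 5.56 to 6.24 on WT arrays, while Plac8 at 3 h read 9.93 and 9.51 in IkL/L cells, against 11.19 and 11.36 in WT cells. Their part in the Sesn1 and Ccng2 differences was not tested.

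The responses themselves were compared between genotypes. None of the 10 genes passed in limma: 0 of 10 at 3 h, with 2 at an unadjusted p under 0.05 (Ccng2 and Tob1), and 0 of 10 at 12 h, with 1 (Foxo3). Of all genes 0.0385% passed at 3 h and 0.022% at 12 h. So a response called in one genotype and missed in the other, as for Tob1, Btg1 and Foxo3, was not shown to differ.

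**Figure D4:**
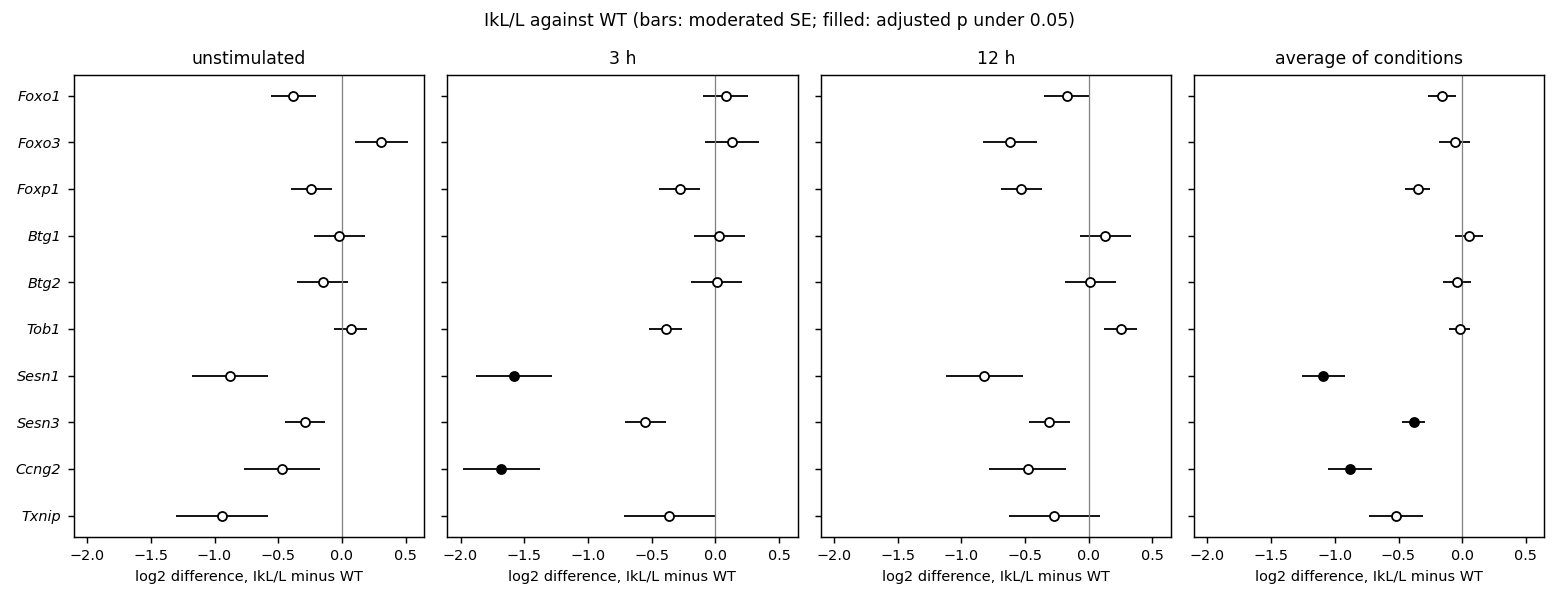
Log2 difference of IkL/L minus WT for each gene without stimulus, at 3 h, at 12 h and averaged over the 3 conditions; bars are moderated standard errors and filled symbols passed an adjusted p of 0.05. Sesn1 and Ccng2 are filled at 3 h and on average, Sesn3 on average only, while Btg1 and Btg2 lie near 0 throughout.

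Across the 12 arrays, the closest pairs among the 10 genes were Ccng2 with Sesn3 (Pearson r 0.98), and Sesn1 with both Sesn3 and Ccng2 (0.95 each), followed by Btg2 with Foxo1 (0.94). Btg1 had r of 0.3 with Foxo1, 0.29 with Btg2 and -0.25 with Foxo3. These values describe 12 points in 6 groups, and genes on the same arrays share their errors. Among 12118 brighter genes outside the set, the nearest pattern to Foxo1 was that of Gimap8 (r 0.98), to Foxp1 Arhgap15 (0.983), to Btg2 Zfp871 (0.985) and to Btg1 Prpf39 (0.972). Sesn1 was nearest to Cd79a (0.986), Sesn3 to Arhgap45 (0.991), Ccng2 to Bmf (0.985), which encodes a proapoptotic BCL2-family protein, and Txnip to Msi2 (0.977). Foxo3 was nearest to Pttg1ip (0.97), and Tob1 to Actr8 (0.949).

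Genes upstream of FOXO were read from a list of 17 PI3K-AKT genes, of which 14 were measured with a single symbol. At 3 h, 2 were higher and 4 lower in IkL/L cells, and 2 higher and 3 lower in WT cells, with list medians of -0.02 and 0; over all genes 20.4% passed in IkL/L cells and 19.4% in WT cells at that time. Pik3ap1, an adaptor that links the B cell receptor to PI3K, rose at 3 h (log2 1.7 in IkL/L cells, adjusted p = 0.00025, and 1.63 in WT cells, adjusted p = 0.000318). Pik3cd, the PI3K catalytic subunit of lymphocytes, fell (log2 -2.18, adjusted p = 8.17e-05, and -0.89, adjusted p = 0.0147), the WT call being lost without WT unstimulated replicate 2 (0.124) or WT 3 h replicate 1 (0.126). With the mean of all Pik3cd probe sets, the 3 h WT log2 difference was -0.27 and did not pass (adjusted p = 0.0818). At 3 h Pik3cd was lower in IkL/L than in WT cells (log2 -1.88, adjusted p = 0.00365). Pik3ip1, a PI3K inhibitor and itself a FOXO target, read 6.53 and 6.29 in IkL/L cells at 3 h, against 8.25 and 8.59 in WT cells (log2 -2.02, adjusted p = 0.00121). By 12 h Pik3ip1 had fallen in both genotypes, by 3.54 on the log2 scale in IkL/L cells and by 3.49 in WT cells. Of 4 measured other FOXO and FOXP genes, only Foxo4 passed, lower at 3 h in IkL/L cells (log2 -1, adjusted p = 0.0149, or 0.102 without IkL/L 3 h replicate 1) and in WT cells (log2 -1.4, adjusted p = 0.00227).

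Genes known as FOXO targets in lymphocytes moved in both directions. Of 17 measured among 19 listed, 4 rose and 8 fell in IkL/L cells at 3 h, and 3 rose and 8 fell in WT cells, beside 20.4% and 19.4% of all genes. At 12 h the counts were 1 higher and 10 lower in IkL/L cells and 0 higher and 8 lower in WT cells, beside 17.6% and 18.8% of all genes. The list medians were -0.27 and -0.2 at 3 h and -0.72 and -0.56 at 12 h. Among the falls at 3 h were Rbl2, a pocket protein that represses cell cycle genes (log2 -2.62 in IkL/L cells and -2.88 in WT cells), and Cat, the gene of catalase (log2 -3.5 and -3.17). Klf2, a factor of quiescence and homing, fell at 3 h (log2 -2.09 in IkL/L cells and -2.5 in WT cells) and was down at 12 h (log2 -2.78 and -3.04). S1pr1, the receptor that guides lymphocytes out of tissues, read 4.63 and 4.23 in IkL/L cells at 3 h, against 6.23 and 6.16 in WT cells (log2 -1.77, adjusted p = 0.00199). Without stimulus S1pr1 was also lower, at 6.63 and 6.89 in IkL/L cells, against 7.7 and 7.83 in WT cells (log2 -1.01, adjusted p = 0.0319, up to 0.373 without WT replicate 2 in all conditions). At 12 h its levels overlapped, at 4.55 and 4.07 in IkL/L cells and 4.15 and 4.19 in WT cells. Cdkn1b, a cyclin-dependent kinase inhibitor chosen after its values were seen, fell at 3 h in both genotypes (log2 -2.32 in IkL/L cells and -2.24 in WT cells).

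Other targets went up at 3 h. Il7r, a cytokine receptor gene, rose at 3 h (log2 2.87 in IkL/L cells, adjusted p = 0.00619, and 3 in WT cells, adjusted p = 0.00505) with calls lost in IkL/L cells without unstimulated replicate 1 (adjusted p = 0.0575) or 3 h replicate 2 (0.0506). Its 12 h difference did not pass (log2 0.03 in IkL/L cells and 0.65 in WT cells). Irs2, an adaptor of insulin signalling, rose at 3 h (log2 1.79 and 2.48) and was lower than without stimulus at 12 h in IkL/L cells (log2 -1.69, adjusted p = 0.0066). Cat had its own course: it read 6.71 and 7.27 in IkL/L cells and 7.07 and 6.93 in WT cells at 12 h, near its unstimulated levels of 7.29 and 6.24 in IkL/L cells and 7.79 and 7.72 in WT cells.

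**Figure D5:**
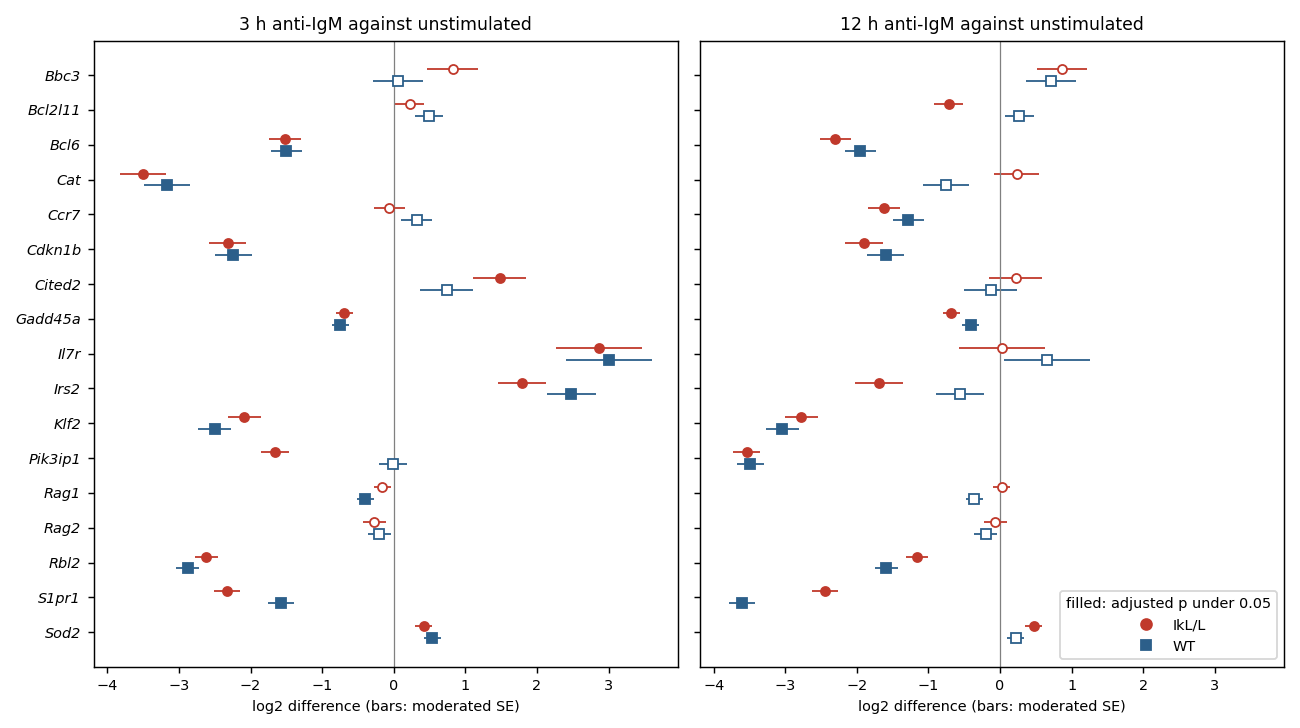
Log2 difference from unstimulated cells at 3 h (left) and 12 h (right) for the 17 measured genes of the FOXO target list, IkL/L (circles) above WT (squares), with moderated standard errors; filled symbols passed an adjusted p of 0.05. Il7r and Irs2 lie right of 0 at 3 h, while Klf2, Rbl2, S1pr1, Bcl6 and Cdkn1b lie left of 0 at both times.

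Partners of the BTG and TOB proteins were read from a list of 14 genes. Of 12 measured BTG, TOB and CCR4-NOT genes, at 3 h 0 passed in IkL/L cells in limma, with 2 at an unadjusted p under 0.05, and 2 rose and 2 fell in WT cells, beside 20.4% and 19.4% of all genes. Cnot8, a deadenylase subunit, rose at 3 h in WT cells (log2 0.99, adjusted p = 0.000304) and read 8.64 and 8.6 at 3 h in IkL/L cells, against 8.25 and 8.54 without stimulus. At 12 h, 2 were higher and 2 lower in IkL/L cells, and 0 higher and 4 lower in WT cells, beside 17.6% and 18.8% of all genes. Cnot6l, another deadenylase subunit, had 12 h log2 differences of -0.99 (adjusted p = 0.000728) in IkL/L cells and -1.11 (adjusted p = 0.000302) in WT cells. The 2 rises in IkL/L cells, Cnot9 and Cnot11, were lost when arrays were scaled to housekeeping genes.

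The remaining sestrin went the opposite way to Sesn1 and Sesn3. Sesn2, a sestrin gene known to respond to amino acid and stress signals, rose at 3 h. It read 6.18 and 6.24 without stimulus, 7.44 and 7.87 at 3 h and 6.75 and 7.14 at 12 h in IkL/L cells, and 5.96 and 6.36, then 7.32 and 7.2, then 6.65 and 6.81 in WT cells. Its 3 h arrays were the highest in both genotypes, with log2 differences of 1.45 (SE 0.19, adjusted p = 0.000405) in IkL/L cells and 1.1 (adjusted p = 0.00222) in WT cells. Of the 14 measured sestrin, GATOR and TSC genes outside the set, 4 rose and 5 fell in IkL/L cells and 5 rose and 3 fell in WT cells at 3 h, beside 20.4% and 19.4% of all genes. Nprl2, a subunit of the GATOR1 complex, fell (log2 -0.81 in IkL/L cells, adjusted p = 0.00393, and -1.08 in WT cells, adjusted p = 0.000722).

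Relatives and partners of Txnip were read from a list with 13 measured genes. At 3 h, when 20.4% of all genes passed in IkL/L cells and 19.4% in WT cells, 3 rose and 2 fell in IkL/L cells and 3 rose and 3 fell in WT cells. At 12 h, when 17.6% and 18.8% of all genes passed, 4 rose and 2 fell in IkL/L cells and 4 rose and 3 fell in WT cells. Arrdc3, an alpha-arrestin gene like Txnip, fell at 3 h (log2 -2.73 in IkL/L cells, adjusted p = 0.00819, and -2.8 in WT cells, adjusted p = 0.00744), though its replicates differed by more than 1 log2 unit in both genotypes without stimulus and at 3 h. Those calls were lost without unstimulated replicate 1 (adjusted p = 0.0739 in IkL/L cells and 0.0705 in WT cells) or 3 h replicate 2 (0.0794 and 0.0679). Mlxip, which encodes MondoA, an activator of Txnip transcription, was lower at 12 h (log2 -1.1 and -1). Txnrd1, the thioredoxin reductase, was higher at 12 h (log2 3.29, adjusted p = 8.66e-05, in IkL/L cells and 1.95, adjusted p = 0.00146, in WT cells), as was Txn1, thioredoxin (log2 1.84 and 1.58). Hk2, a hexokinase of glucose use, rose at 3 h (log2 2.31 and 2.69).

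Of 13 measured genes of p53 and its targets, 2 rose and 2 fell in IkL/L cells and 2 rose and 3 fell in WT cells at 3 h, beside 20.4% and 19.4% of all genes. Sesn2 is also on that list. Trp53inp1, a stress-induced gene, fell at 3 h (log2 -2.03 in IkL/L cells and -1.34 in WT cells) and at 3 h was lower in IkL/L than in WT cells (log2 -1.39, adjusted p = 0.0013). Aen, a nuclease gene, rose at 3 h (log2 1.44 and 1.56). Of 12 measured proliferation genes, 4 rose and 1 fell in IkL/L cells and 4 rose and 2 fell in WT cells at 3 h, against the same shares of all genes. Myc rose (log2 2.15 and 2.79), while Ccnd3, a cyclin gene, fell (log2 -2.59 and -2.17). Mki67, a marker of cycling cells, passed in neither genotype at 3 h or 12 h.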

How the data were processed

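Biotin-labelled cRNA made in 2 cycles from 100 ng of total RNA was hybridized to an Affymetrix mouse array, per the labels' protocols. The authors deposited log2 signals made with RMA (named without a version in the submitters' processing notes). RMA equalizes arrays and compresses differences of dim genes, and the files hold no background call. Of 45037 probe sets, 34945 have 1 gene symbol, 932 several and 9160 are not listed in the platform annotation; those with 1 symbol give 18193 genes, 9010 of them with more than 1 probe set, and the highest mean was used.

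All arrays entered one limma model with a mean for each group (version 3.58.1, R 4.3.3), with empirical Bayes moderation (6 residual and 3.95 prior degrees of freedom) and Benjamini-Hochberg adjustment over all genes in each of 12 comparisons, at a threshold of 0.05. SE is the moderated standard error. The fit was tested on simulated data with independent errors for each array, which cannot speak to arrays that deviate together. The number of arrays limits the precision.

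Same-numbered arrays deviated together within WT (r 0.546 to 0.619) and within IkL/L (0.354 to 0.49) over 6064 bright genes, so replicate numbers were taken to pair arrays within a genotype. Across genotypes r was 0.026 to 0.31. Fits with a replicate block, other probe set rules, scalings and arrays left out are in the closing section.

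All 10 genes are named in every comparison, and from each gene list up to 3 genes with the largest changes past the threshold per comparison; the text prints a part of these. For each of the 10, the 3 genes of highest Pearson r were found, and the first is printed. The 10 genes and the lists were chosen with earlier results of these data known. List genes without a single-symbol probe set were not analysed here.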

Additional observations from a re-analysis of the deposited data

How the results depend on the processing

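Of 42 calls of the 10 genes, 20 were kept in all 23 other settings: both replicate blocks, the mean of all probe sets, only the groups compared, median centring, housekeeping scaling, removal of the dimmest 1 in 3 genes, and arrays left out. No call of the 10 changed sign; sign changes of results past the threshold in neither setting were counted (120) but not weighed. With the replicate block within genotype, the numbers of the 10 changed were 1 for IkL/L against WT without stimulus, 1 at 12 h and 5 on average, where the unblocked fit had 0, 0 and 3. The block added Btg1 at 12 h and Sesn1 from 3 h to 12 h in IkL/L cells and lost no call. Its numbers for IkL/L against WT rest on an error without the spread between replicates, so they are likely too high. With the mean of all probe sets the numbers were 0 for 12 h against 3 h in WT cells, 1 for 12 h against 3 h in IkL/L cells and 1 for IkL/L against WT at 3 h, where 3, 2 and 2 passed. This setting also lost Foxp1 (adjusted p = 0.12), Btg1 (0.173) and Tob1 (0.459) at 12 h against no stimulus in WT cells, which left 6 of 9, Tob1 at 3 h (0.0573) and Sesn3 at 12 h (0.202) in IkL/L cells, and Sesn3 on average (0.201). With only the groups compared, which leaves fewer residual degrees of freedom, they were 1 for 12 h against 3 h in WT cells and 0 for IkL/L against WT at 3 h. The causes were not tested except as stated.

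With arrays left out, the numbers ranged from 5 to 8 (3 h, IkL/L), 6 to 7 (3 h, WT), 6 to 9 (12 h, IkL/L), 5 to 9 (12 h, WT), 2 to 4 (12 h against 3 h, IkL/L) and 0 to 3 (12 h against 3 h, WT). For IkL/L against WT they were 0 to 1 without stimulus, 0 to 2 at 3 h, 0 to 1 at 12 h and 0 to 4 on average. Where 1 array of a group remains, it is assumed to vary like the other groups.

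Housekeeping scaling (6 genes) moved the median of all genes by -0.417 (IkL/L) and -0.205 (WT) at 12 h against no stimulus, and by -0.42 and -0.194 against 3 h. It moved IkL/L against WT at 12 h by -0.145. Of the 6 genes, Gusb (log2 1.71 in IkL/L and 1.12 in WT cells) and Hprt (0.5 and 0.66) were themselves called higher at 12 h than without stimulus. The share of calls that were higher was 11.8% in IkL/L cells and 31.9% in WT cells at 12 h with this scaling, against 55.3% and 53.9% as deposited; 14.4% and 33.3% for 12 h against 3 h, against 58.7% and 60%; and 60.4% for IkL/L against WT at 3 h, against 49%. All 10 genes then passed as lower in IkL/L cells at 12 h, and the rise of Foxo3 in WT cells from 3 h to 12 h did not pass (adjusted p = 0.21). Rises of Sesn2, Aen and Sgk1 at 12 h in IkL/L cells were also lost. Of 365 calls of named genes outside the set, 212 were lost in at least 1 setting. Among these genes, Msi2 at 12 h in IkL/L cells changed sign with the mean of all probe sets (log2 0.11), and Arrdc1 from 3 h to 12 h in IkL/L cells with housekeeping scaling (log2 -0.05), both short of the threshold.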
